A study of Arabidopsis thaliana with 4 samples.

Results

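Signals of heat shock protein genes were examined in inflorescences of Arabidopsis thaliana that had not been given a heat treatment. The set holds 8 of the 22810 probe sets on the ATH1 array, chosen by probe set identifier and gene name: HSFA2 (266841_at), HSP101 (260248_at), HSP90.1 (248332_at), HSP70 (256245_at), HSP17.4 (252515_at), HSP18.2 (247691_at), HSP17.6II (250296_at) and a probe set listed as HSP22.0 (254839_at). Wild-type Col-0 was compared with xrn4-5, a mutant allele of the exoribonuclease gene XRN4 in the same ecotype, with 2 arrays per genotype, numbered 1 and 2. All plants grew at 21 °C in long days of 16 h light and 8 h dark, and both genotypes were harvested as whole inflorescences of mixed stages. In such bulk tissue, fewer cells of a type and less RNA per cell cannot be told apart. Whether array 1 and array 2 of a genotype stand for different plants is not stated, so the p-values reflect only how much these arrays differed, and that difference may be technical.

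Heat shock proteins are chaperones that hold unfolded proteins in solution, refold them or pull aggregates apart. In plants, heat shock factors bind the promoters of their genes and raise transcription strongly within minutes of warming, while many of these genes are nearly silent in vegetative tissue at normal temperature. Some are also active without heat in pollen and seed development. XRN4 degrades uncapped cytoplasmic RNA from the 5′ end and is known to take part in messenger RNA decay during heat stress. The comparison here asks whether heat shock transcripts differ in level between the genotypes when no heat is applied. No heated sample was analysed here, so no induction by heat can be given.

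One name did not hold up against the platform annotation. The probe set listed as HSP22.0, 254839_at, is annotated there as Hop3, a heat-induced HSP70-HSP90 organizing co-chaperone, and it is called Hop3 from here on. ATHSP22.0 itself, a small heat shock protein of the endoplasmic reticulum, is annotated on another probe set, 255811_at. The other 7 probe sets are not listed in that annotation, so their gene names are those given with the set and were not checked.

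Signals are linear intensities that the authors had scaled to a common level per array, and the array medians lay between 239.6 and 248.0. Differences are xrn4-5 minus Col-0 on the log2(value + 32) scale, on which the change of a dim probe set comes out too small. They were tested with limma over all 22746 probe sets that are not controls, with Benjamini-Hochberg adjustment and a threshold of 0.05. The small number of arrays limits how precise each value is. XRN4 has no named probe set in the annotation, so the targeted gene could not be followed. Of 9 floral markers only AGL24 has a named probe set, with signals of 166.3 to 202.8. Summed signals of the 3 of 6 tapetum markers with a named probe set ran from 7477 to 8235 in xrn4-5 and from 9013 to 9040 in Col-0, and their part in the members' values was not tested.

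No member passed the adjusted limma test in either direction, and no probe set on the whole array did (0% of 22746, higher or lower). At an unadjusted limma p under 0.05, 1 of the 8 was higher in xrn4-5, against a background of 4.46% of all probe sets, and 0 were lower, against 3.51%. The xrn4-5 arrays both exceeded the Col-0 arrays for 1 member, HSP18.2 (21.4% of all probe sets), and both lay under them for 1, HSP90.1 (17.2% of all). The arrays of the genotypes overlapped for the other 6. The median difference of the 8 members was -0.04, against 0.02 for all probe sets tested.

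**Figure D1:**
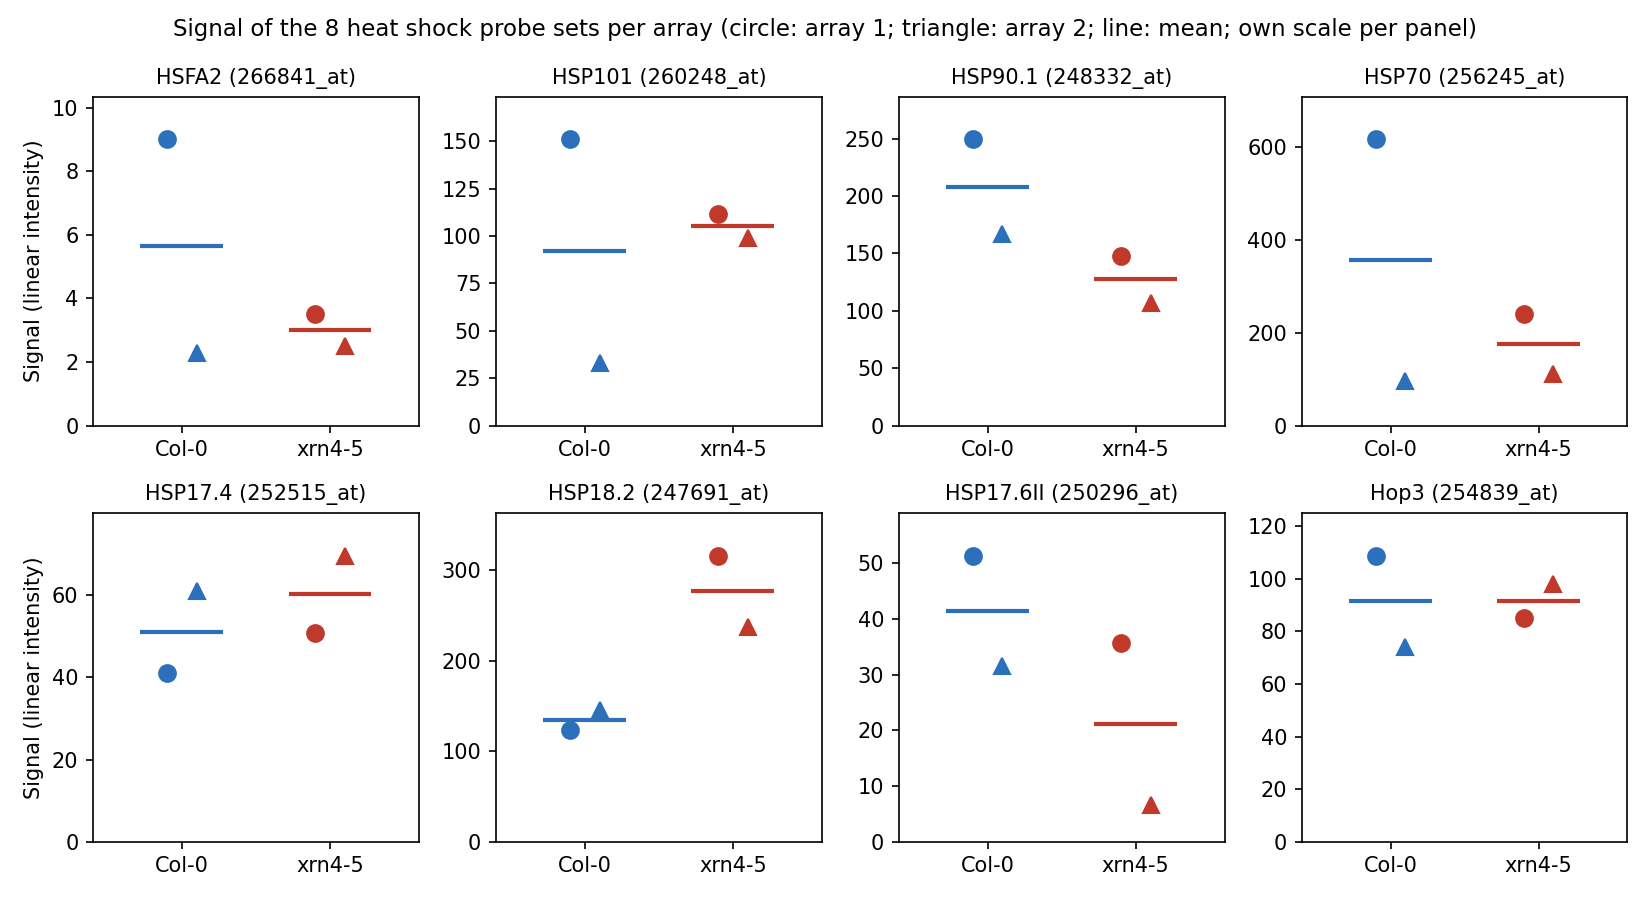
Linear signal of each of the 8 probe sets in Col-0 (blue) and xrn4-5 (red), with array 1 as a circle, array 2 as a triangle, the mean of 2 arrays as a line, and a separate vertical axis from 0 in each panel. HSP18.2 is higher in both xrn4-5 arrays (316.0 and 237.6) than in both Col-0 arrays (123.7 and 145.3), and HSP70 in Col-0 spans 96.6 to 616.1.

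Of the 8, only the small heat shock protein gene HSP18.2 had both mutant arrays above both wild-type arrays. HSP18.2 encodes a cytosolic class I small heat shock protein, which binds unfolding proteins and keeps them from aggregating. Its signal was 316.0 and 237.6 in the xrn4-5 arrays and 123.7 and 145.3 in the Col-0 arrays. The genotypes did not overlap, and the lower mutant array was still well above the higher wild-type array. The xrn4-5 mean was 277 ± 55.4 (SD, n = 2) and the Col-0 mean was 135 ± 15.3 (SD, n = 2). The difference was 0.88 on the log2(value + 32) scale. That is 1.84-fold for values with 32 added, with a 95% interval from 1.27 to 2.67. The ratio of the mean signals was 2.06. Its limma adjusted p was 0.516, and the unadjusted limma p was 0.00827. In the authors' deposited table, which sets each xrn4-5 array against the Col-0 array of the same number, its log2 ratios were 1.0 and 0.7. The change p-values of that authors' deposited table run from 0 for an increase to 1 for a decrease, and for HSP18.2 they were 7.8e-05 and 0.000692. For 2.31% of all probe sets, both change p-values in the authors' deposited table were under 0.01, as for 1 of the 8 members. The difference stayed between 0.62 and 1.07 on the log2 scale in the 13 alternatives computed for HSP18.2.

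The other small heat shock proteins in the set had arrays that overlapped between the genotypes. HSP17.4, also a cytosolic class I protein, had signals of 50.8 and 69.5 in xrn4-5 and 41.0 and 60.9 in Col-0. Array 2 was the higher of each genotype, and the difference was 0.15 (SE 0.23, limma adjusted p = 0.896). HSP17.6II, of cytosolic class II, had signals of 35.6 and 6.6 in xrn4-5 and 51.3 and 31.6 in Col-0. Its lowest value, in xrn4-5 array 2, stood apart from the other 3 arrays. The difference was -0.51 (SE 0.33, limma adjusted p = 0.759). It was -0.11 without xrn4-5 array 2, -0.92 without xrn4-5 array 1 and -0.32 without Col-0 array 1. With the smaller and the larger alternative pseudocount it was -1.31 and -0.19. Whether HSP18.2 differs from these genes in its response to genotype was not tested.

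HSP90.1 was the only member with both mutant arrays below both wild-type arrays. It encodes the heat-inducible cytosolic HSP90, a chaperone that matures kinases, receptors and other client proteins. Signals were 148.1 and 107.2 in xrn4-5 and 249.2 and 166.8 in Col-0. The gap between the nearest arrays, 148.1 and 166.8, was smaller than the gap between the arrays of either genotype. The means were 127.7 ± 28.9 (SD, n = 2) and 208 ± 58.3 (SD, n = 2), and the difference was -0.58 with a 95% interval from -1.25 to 0.09 (limma adjusted p = 0.663). It was -0.33 without Col-0 array 1 and -0.39 without xrn4-5 array 2. In the authors' deposited table the log2 ratios were -0.7 and -0.8, with change p-values of 0.999811 and 0.994591. For 1.93% of all probe sets, both change p-values in the authors' deposited table were over 0.99, as for 1 of the 8 members.

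For HSP70, 1 wild-type array decided the direction. HSP70 encodes a heat-inducible cytosolic chaperone that folds proteins in cycles driven by ATP. Signals were 239.9 and 112.0 in xrn4-5 and 616.1 and 96.6 in Col-0. Col-0 array 1 was the highest and Col-0 array 2 the lowest of the 4, so the mutant arrays lay inside the wild-type range. The difference was -0.54 with a 95% interval from -2.64 to 1.55 (limma adjusted p = 0.896). Without Col-0 array 1 it turned to 0.62, and without Col-0 array 2 it was -1.71. In the authors' deposited table the log2 ratios were -0.8 in the arrays numbered 1 and 0.6 in those numbered 2.

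HSP101 showed a similar split between the wild-type arrays. HSP101 is a ring-shaped disaggregase that extracts proteins from aggregates and is required for acquired heat tolerance. Signals were 111.6 and 98.7 in xrn4-5 and 150.9 and 33.1 in Col-0. The mutant arrays were close together and the wild-type arrays enclosed them. The difference was 0.33 with a 95% interval from -0.99 to 1.64 (limma adjusted p = 0.902). Without Col-0 array 2 it turned to -0.42, and without Col-0 array 1 it was 1.07. In the authors' deposited table the log2 ratios were -0.8 and 1.6.

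HSFA2, the heat-induced factor that sustains expression of heat shock protein genes, gave signals near 0 in every array. They were 3.5 and 2.5 in xrn4-5 and 9.0 and 2.3 in Col-0. All 4 lie far below the added constant of 32, so the difference of -0.10 (SE 0.15, limma adjusted p = 0.896) holds almost no information on a fold change. The files used here carry no detection call per array, so which signals exceeded background was not determined. Hop3 had signals of 85.1 and 97.9 in xrn4-5 and 108.8 and 74.1 in Col-0. The wild-type arrays enclosed the mutant arrays, and the difference was 0.01 (SE 0.23, limma adjusted p = 0.994). Its sign turned with quantile normalization and with median centring of each array.

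A filter that drops the dimmest 40% of probe sets (those whose mean over the arrays is 159.5 or less) left 3 of the 8 members, HSP18.2, HSP90.1 and HSP70, against 60% of all probe sets. By genotype mean, HSP18.2 was above this cut only in xrn4-5 (277, against 135 in Col-0). HSP90.1 was above it only in Col-0 (208, against 127.7 in xrn4-5). HSFA2, HSP101, HSP17.4, HSP17.6II and Hop3 were under the cut. Those 5 were tested only because no probe set was left out.

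**Figure D2:**
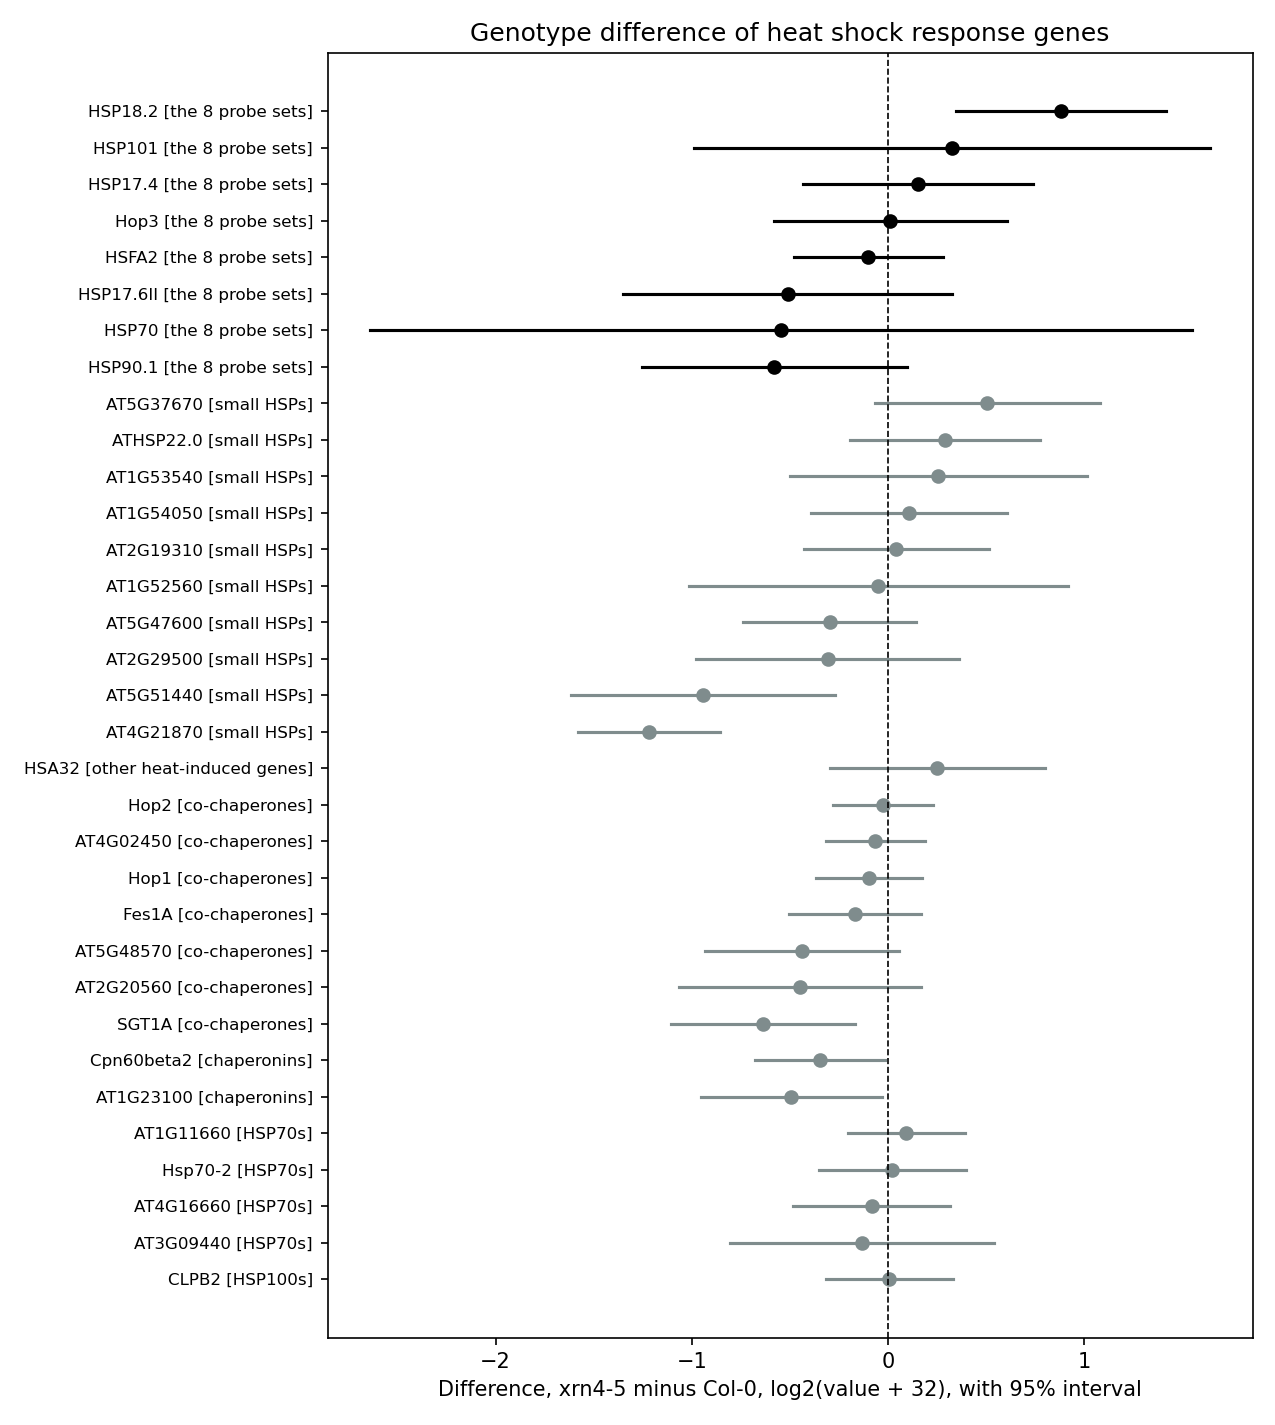
Difference of xrn4-5 minus Col-0 on the log2(value + 32) scale with the 95% interval from limma, for the 8 probe sets (black) and the 25 other heat shock response genes with a named probe set (grey, list in brackets). Among the 8, only the interval of HSP18.2 (0.35 to 1.42) excludes 0, and among the others AT4G21870 has the lowest estimate, -1.22.

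The rest of the heat shock response was followed through 8 lists with 101 loci, of which 25 besides Hop3 have a probe set with exactly 1 named gene. Heat shock factors and HSP90s had none. Of these 25 genes, 9 had a higher and 16 a lower estimate in xrn4-5, where 53% and 47% of all probe sets did, and 0 passed the adjusted limma test in either direction. At an unadjusted limma p under 0.05, 0 were higher and 5 lower, against backgrounds of 4.46% and 3.51%. Both mutant arrays were above both wild-type arrays in 3 genes and below them in 10, where 21.4% and 17.2% of all probe sets were. The median difference was -0.08, and it ranged from -0.24 without xrn4-5 array 1 to -0.03 without xrn4-5 array 2.

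Of 18 small heat shock protein loci in the list, 10 have a named probe set. They split in both directions, with 5 of 10 estimates higher, 5 lower and none past the adjusted limma test. The lowest was AT4G21870, entered in the list as HSP15.4, with signals of 219.3 and 243.6 in xrn4-5 and 547.0 and 614.3 in Col-0. The arrays of each genotype were close together and the genotypes were far apart. The difference was -1.22, with a 95% interval from -1.58 to -0.86 (limma adjusted p = 0.516). That is 2.32-fold higher in Col-0 for values with 32 added, and the ratio of the mean signals was 2.51. It passed in 1 of 12 alternatives, with the array number as a block and dim probe sets left out (limma adjusted p = 0.00981). That setting was chosen after seeing the data, and with it 71 of 13647 probe sets were called higher and 61 lower. AT5G51440, entered as HSP23.5, of the mitochondrial class, had signals of 30.3 and 8.5 against 69.2 and 60.0. Its difference was -0.94 (limma adjusted p = 0.544).

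On the higher side, AT5G37670, entered as HSP15.7, the peroxisomal form, had signals of 90.9 and 126.2 in the mutant and 61.0 and 71.6 in the wild type. Its difference was 0.51 (limma adjusted p = 0.652). ATHSP22.0, given here because of the name conflict above and not by the rule for named genes, had signals of 101.0 and 100.6 against 81.7 and 72.0. The mutant arrays were above the wild-type arrays, with a difference of 0.29 (limma adjusted p = 0.765). Its log2 ratios in the authors' deposited table were -0.5 in the arrays numbered 1 and 0.1 in those numbered 2. AT5G47600, entered as HSP14.7, had signals of 249.8 and 260.8 against 284.1 and 362.0, a difference of -0.30 (limma adjusted p = 0.737).

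Of 17 co-chaperone loci in the list, 7 besides Hop3 have a probe set with exactly 1 named gene. All 7 had lower estimates in xrn4-5, from -0.64 to -0.02, where 47% of all probe sets had one. Hop3 itself was at 0.01. In 5 of them both mutant arrays were below both wild-type arrays, as in 17.2% of all. None passed the adjusted limma test. SGT1A, a partner of HSP90, had signals of 310.9 and 231.6 in the mutant and 460.3 and 410.8 in the wild type. The genotypes did not overlap, and the difference was -0.64 with a 95% interval from -1.10 to -0.17 (limma adjusted p = 0.559). AT5G48570 (ROF2), a heat-induced immunophilin, had 98.9 and 88.2 against 147.1 and 129.6. AT2G20560, of the DnaJ type that feeds substrates to HSP70, had 44.0 and 38.4 against 86.6 and 51.7. Fes1A, a partner of cytosolic HSP70, had 413.6 and 371.4 against 464.2 and 425.4. These are the 4 of the 7 with the smallest p, and the rest had smaller differences, from -0.10 to -0.02.

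Of 9 chaperonin loci in the list, 2 have a probe set with exactly 1 named gene. In both, the mutant arrays were below the wild-type arrays, as in 17.2% of all probe sets. Cpn60beta2, a subunit of the chloroplast chaperonin, had signals of 2471 and 2002 in the mutant and 2808 and 2864 in the wild type, a difference of -0.35 (limma adjusted p = 0.609). AT1G23100, entered as a CPN10-type co-chaperonin, had 210.0 and 182.1 against 261.2 and 317.9, a difference of -0.49 (limma adjusted p = 0.597).

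The HSP70 relatives with a named probe set had estimates close to 0. They were 4 of 18 loci in that list, and the rest have no probe set with exactly 1 named gene in the annotation. Hsp70-2, AT3G09440 (HSC70-3), AT1G11660 and AT4G16660 had differences from -0.13 to 0.09, with limma adjusted p-values from 0.872 to 0.980. AT3G09440 had signals of 6237 and 4189 in xrn4-5 and 6710 and 4690 in Col-0, with array 1 the higher in each genotype. The signs of Hsp70-2, AT3G09440 and AT4G16660 turned when an array was left out, and that of Hsp70-2 also with median centring. CLPB2, a relative of HSP101, had signals of 5.7 to 6.7 in the 4 arrays, and its difference of 0.01 turned sign with quantile normalization and median centring. HSA32, which prolongs acquired heat tolerance, had 171.8 and 191.3 in the mutant and 172.3 and 125.0 in the wild type.

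**Figure D3:**
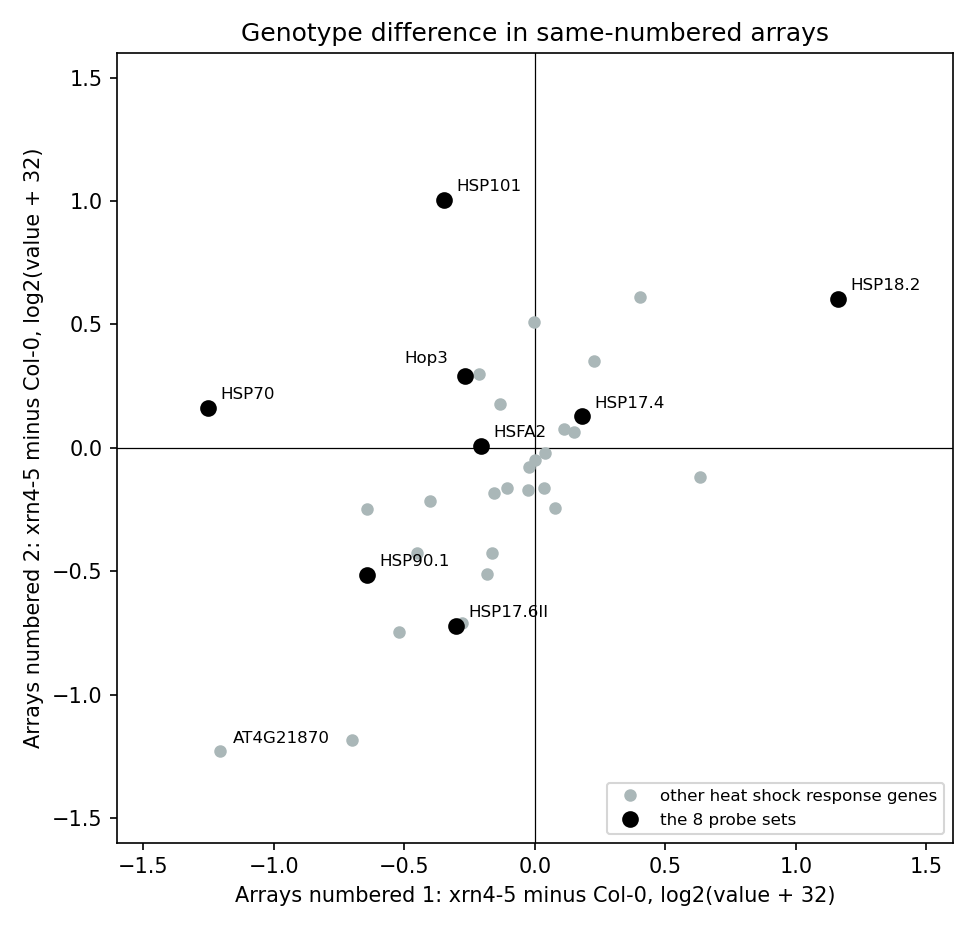
Difference of xrn4-5 minus Col-0 on the log2(value + 32) scale in the arrays numbered 1 (horizontal) and in those numbered 2 (vertical), for the 8 probe sets (black) and the 25 other genes (grey). HSP18.2 is positive in both (1.16 and 0.60), HSP90.1 is negative in both (-0.64 and -0.51), and HSP70 (-1.25 and 0.16) and HSP101 (-0.35 and 1.01) lie in the upper left quadrant.

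Compared within same-numbered arrays, the members gave different pictures in the arrays numbered 1 and 2. The median difference over the 8 was -0.28 in arrays numbered 1 and 0.15 in arrays numbered 2, where all probe sets had medians of -0.00 and 0.03. The authors' log2 ratios had opposite signs in the 2 pairs for 5 of the 8 members and the same sign for 3, in the authors' deposited table. Among the 25 other heat shock response genes, signs in that table were opposite for 7 and the same for 13. The rest had a ratio of 0.0 in a pair. The share of all probe sets with opposite signs was not counted. HSP17.4 had ratios of -0.1 and -0.1 there, opposite in sign to its difference in intensities, and HSP17.6II had 0.2 and -1.3. The ratios in that table are therefore not plain ratios of the intensities.

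**Figure D4:**
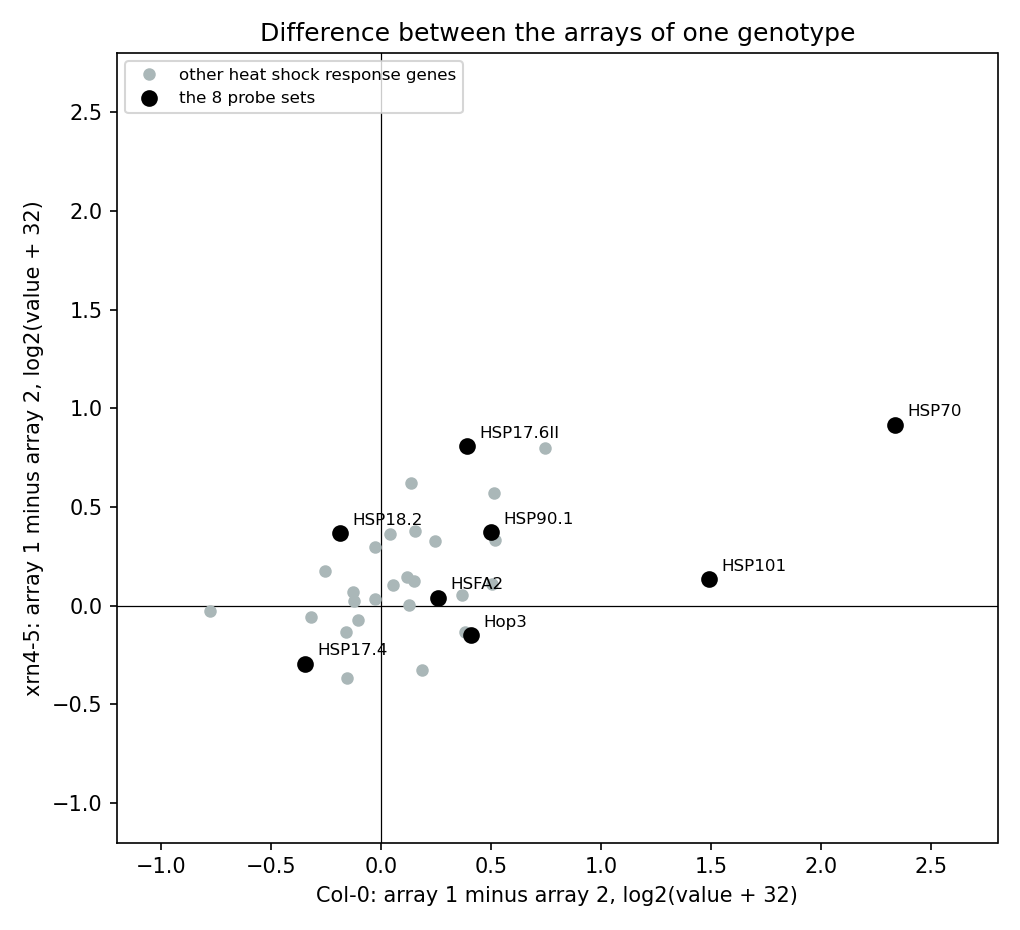
Array 1 minus array 2 on the log2(value + 32) scale within Col-0 (horizontal) and within xrn4-5 (vertical), for the 8 probe sets (black) and the 25 other genes (grey). HSP70 (2.33) and HSP101 (1.49) lie far to the right, and no member differs by 1 or more between the xrn4-5 arrays.

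For HSP70 and HSP101 the Col-0 arrays differed from each other by more than any member differed between the genotypes. The Col-0 arrays differed by at least 1 on the log2 scale for 2 of the 8 members, HSP70 (2.33) and HSP101 (1.49), against 2.90% of all probe sets and 0 of the 25 other heat shock response genes. On that scale the xrn4-5 arrays did so for 0 of the 8, against 2.18% of all. The widest xrn4-5 gaps there were 0.92 for HSP70 and 0.81 for HSP17.6II. These counts depend on the added constant of 32, which shrinks gaps between dim signals. As plain ratios of array 1 over array 2, xrn4-5 gave 5.39 for HSP17.6II and 2.14 for HSP70. Col-0 gave 6.38 for HSP70, 4.56 for HSP101 and 3.91 for HSFA2. The share of all probe sets with such plain ratios was not counted. Array 1 was above array 2 in both genotypes for 5 of the 8 members, HSFA2, HSP101, HSP90.1, HSP70 and HSP17.6II. The same held for 13 of the 25 other heat shock response genes and for 28.7% of all probe sets.

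Some other signals also differed between the Col-0 arrays, not all in the same direction. The control probe set for 25S ribosomal RNA read 763.0 in Col-0 array 1 and 250.6 to 296.0 in the other 3 arrays. BAN, the only 1 of 6 seed markers with a named probe set, read 669.6 in Col-0 array 1, 181.6 in Col-0 array 2, and 409.2 and 318.6 in xrn4-5. The summed signal of the 3 of 7 late pollen markers with a named probe set (ACT12, TUA1 and AGL65) was 1538 in Col-0 array 1, 1198 in Col-0 array 2, and 1109 to 1136 in xrn4-5. The summed signal of the 3 of 4 photosynthesis markers with a named probe set was 30728 and 27748 in Col-0 arrays 1 and 2 and 30604 and 26983 in xrn4-5. The summed tapetum signal was nearly level, with 9013 and 9040 in Col-0 arrays 1 and 2. Within that set A9 was higher in Col-0 array 2 (2668.3) than in Col-0 array 1 (2002.2). None of these markers was at 0. Their part in the HSP70 and HSP101 signals was not tested.

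By the distance used here, the 8 members were not close to a common profile over the 4 arrays. On centred log2 values, the median root mean square distance between 2 members was 0.55 over 28 pairs, while the mean profile of the 8 deviated from a flat line by only 0.24. The closest pair were 0.10 apart and the most distant pair 1.16 apart. This distance depends on the size of a profile as well as on its shape. Col-0 array 1 was the highest array for HSFA2, HSP101, HSP90.1, HSP70, HSP17.6II and Hop3, and the share of all probe sets was not counted. No gene was therefore named for likeness to the set.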

How the data were processed

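The deposited intensity table holds 1 linear value per probe set and array. The submitters' processing notes name GCOS and no settings. The 2% trimmed mean was 500.04 in each array, so the authors' deposited intensities had been scaled together. Per the file headers, the authors' deposited ratio table gives a normalized log2 ratio per same-numbered pair and a change p-value, whose method they do not give. The labels' protocols state 15 µg of total RNA per labelling.

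Intensities were analysed as log2(value + 32) with limma 3.58.1 (lmFit, then eBayes with a variance trend) under R 4.3.3, two-sided, with 2 residual degrees of freedom and a prior of 2.94. The 64 control probe sets were left out and dim ones kept, so that each member had a test. Means ± SD are linear intensities. Only the main limma fit was tried on simulated arrays, with independent noise and with changes placed only in probe sets brighter than the median. That trial therefore does not cover the dim members, or arrays that deviate together. Figures used matplotlib 3.10.9. Between arrays of a genotype, 46 and 47 of 22810 values were identical, so neither pair is a duplicate.

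Probe sets were named by the platform annotation, with symbols brought up to TAIR10.1. Of the 22746 probe sets, 13513 have 1 gene, 503 several and 8730 are not listed. The members, lists and most tests were chosen with earlier results of these data known. Besides the 8 members, genes named were all genes of lists with 4 or fewer named genes and otherwise the 4 with the smallest p. Alternatives changed the pseudocount (1 or 128), the dim filter, the normalization, the variance trend, the array number as a block and the arrays used. Promoter motifs were planned and were not analysed here, because no promoter sequences were used.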

Additional observations from a re-analysis of the deposited data

How the results depend on the processing

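The combination of the array number as a block with dim probe sets left out was chosen after seeing the data. No member passed the adjusted limma test in any alternative with a test. The lowest limma adjusted p was 0.0880, for HSP18.2 with that combination. HSP18.2 met its dim filter by the xrn4-5 mean (277) and not by the Col-0 mean (135). Causes were not tested, except that leaving out arrays or probe sets leaves fewer of them. Over all probe sets, 1 was called higher with a pseudocount of 1 and 1 with the dimmest 40% left out, against 0. With that filter and the replicate block together, 71 were called higher and 61 lower, and 1 other heat gene, AT4G21870, was called lower. With the replicate block alone, 0 were called in either direction, as without it, while 1376 had an unadjusted limma p under 0.05 and a higher signal and 1171 a lower one, against 1014 and 798. No label ties the array number to a batch, and the arrays sharing a number deviated together with a correlation of 0.215 across 22746 probe sets. The members' median difference moved from -0.04 to -0.54 with the dimmest 40% left out, with or without the block, where 3 members remained. Of these, HSP18.2 was above the cut only in xrn4-5 and HSP90.1 only in Col-0.

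Leaving out an array treats the lone array of its genotype as varying like the rest. Under that change the members' median difference lay between -0.32 and 0.12, and that of the other heat genes between -0.24 and -0.03. Of 94 alternative values for members, 10 reversed in sign. Without an array, HSFA2 lay between -0.23 and 0.03, HSP101 between -0.42 and 1.07, HSP70 between -1.71 and 0.62, HSP17.4 between -0.02 and 0.33, and Hop3 between -0.19 and 0.22. As the mean of the ratios in the authors' deposited table, HSFA2 became 0.15 and HSP17.4 became -0.10. Hop3 became -0.01 with quantile normalization and with median centring. Among other named genes, 10 of 192 values reversed. Hsp70-2 became -0.00 with median centring and lay between -0.16 and 0.21 without an array, AT3G09440 between -0.42 and 0.15, AT4G16660 between -0.27 and 0.10, and CLPB2 between -0.01 and 0.02. CLPB2 became -0.01 with quantile normalization and -0.02 with median centring. The number of arrays, and the dim signals of 5 of the 8 members, limit all of these values.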
